A study of Mus musculus with 19 samples.

Results

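The proteasome is the protease complex that removes ubiquitinated proteins, and its genes were followed here in mouse oocytes and embryos. The members were the protein-coding genes whose symbols begin with Psma to Psmg and a number, which selected 50 of the 25891 genes in the deposited table by their symbols alone, although this group of genes was chosen with earlier results of these data known. They comprise 31 subunits of the standard 26S particle, 5 core subunits of special tissues or of the immunoproteasome, 7 assembly chaperones, 6 activator and inhibitor genes, and Psmc3ip. Psmc3ip carries the prefix because its protein binds Psmc3, and is a meiotic recombination factor and no subunit. RNA was sequenced from 5 MII oocyte libraries labelled Het (CPEB3+/-), 5 MII libraries labelled KO (CPEB3-/-), 5 2cell libraries labelled Het and 4 2cell libraries labelled KO, with 5 cells pooled per library according to the methods. CPEB3 is a cytoplasmic polyadenylation element-binding protein, which binds mRNA and regulates its poly(A) tail and translation. The KO females were CPEB3 LoxP/LoxP with a heterozygous ZP3-Cre transgene, whose promoter is active in growing oocytes. The methods name CPEB3 LoxP/- with ZP3-Cre, or CPEB3+/+, as the control genotype, and the labels of the Het libraries give no alleles beyond heterozygosity. All females were BL6, were 6 to 10 weeks old and were superovulated with 5 IU of PMSG followed after 48 h by 5 IU of hCG, and 2cell embryos developed in M16 medium were taken 37 h after hCG. A 2cell label gives the genotype of the oocytes, since the paper describes the KO embryos as derived from CPEB3-/- oocytes. For embryo development the paper mated KO females with wild-type males, and such embryos carry a wild-type allele from the father. The males behind the sequenced embryos are not named separately. The values are FPKM (fragments scaled to transcript length and to library size), so levels are given per length. No source names the animals behind each library, so p values measure the spread between libraries, which may be technical.

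The 26S proteasome consists of a 20S core, in which rings of alpha subunits enclose rings of beta subunits, and a 19S regulatory particle. The alpha ring gates the channel, and Psmb5, Psmb6 and Psmb7 of the beta ring carry the proteolytic sites. The 19S base holds the ring of ATPases (Psmc genes) that unfolds substrates and pulls them into the core, and the 19S lid holds the deubiquitinase Psmd14. After fertilization, maternal proteins are broken down through this system while transcripts stored in the oocyte are replaced by those of the embryonic genome.

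The libraries were first compared with their labels. Cpeb3 was listed at 0.07001, 0.0987, 0.04501, 0.0627 and 0.101 FPKM in the CPEB3+/- and at 0.215, 0.141, 0.164, 0.131 and 0.157 FPKM in the CPEB3-/- MII libraries, so the groups did not overlap and the CPEB3-/- group was the higher (exact permutation, two-sided, p = 0.00794, the smallest that 252 splits allow). In 2cell libraries it was also higher in the CPEB3-/- group, at 0.0554 ± 0.0129 (SD, n = 4) against 0.0303 ± 0.0149 FPKM (SD, n = 5; exact permutation p = 0.0476 over 126 splits). The listed level of the targeted gene thus goes against the labels, but all its values are low. It reached 0.1 FPKM in 1 of the 5 CPEB3+/- MII libraries, and limma did not call it in MII libraries. In 2cell libraries it stayed under 0.1 FPKM and was not tested by limma. A gene-level value also does not separate the floxed part from the rest of the transcript. The genotype is therefore given as the library label throughout. The 6 oocyte markers (Zp1, Zp2, Zp3, Gdf9, Bmp15 and Mos) were detected in all groups, and summed to 592 to 817 FPKM in CPEB3+/- and 476 to 566 FPKM in CPEB3-/- MII libraries, and to 71.1 to 128 FPKM in 2cell libraries. The 7 markers of 2cell embryos summed to 199 to 437 FPKM in CPEB3+/- and 190 to 267 FPKM in CPEB3-/- 2cell libraries, and to 1.78 to 2.31 FPKM in CPEB3+/- and 9.11 to 20.5 FPKM in CPEB3-/- MII libraries. Of the 8 cumulus and granulosa markers in the table, 7 had a mean under 0.1 FPKM in both MII groups, and the summed list lay between 0.280 and 0.5005 FPKM in MII and between 0.691 and 1.28 FPKM in 2cell libraries. The haemoglobin genes Hba-a1 and Hba-a2 went from a sum of 0.0512 to 0.428 FPKM in MII to 46.2 to 146 FPKM in 2cell libraries. The depth estimated from the steps between low values was 17.1 to 23.7 M fragments (M, mega) per library and did not differ detectably between genotypes (exact permutation p = 0.714 in MII and 0.643 in 2cell libraries). The deposited values of all genes summed to 83573 to 86770 FPKM in CPEB3+/- and 77208 to 83005 FPKM in CPEB3-/- MII libraries, and to 135309 to 159320 FPKM in CPEB3+/- and 113886 to 123318 FPKM in CPEB3-/- 2cell libraries, and levels and overlaps are given on these values without further scaling. At the estimated depth, 0.1 FPKM corresponds to 1.09 to 16.5 fragments over the exon lengths of the members.

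Within the oocyte, the subunits of 1 complex were listed at very different levels. In CPEB3+/- MII libraries the mean of the 31 standard subunits ran from 0.0165 FPKM for the lid subunit Psmd13 to 157 FPKM for the alpha subunit Psma7, with a median of 2.04 FPKM. Of these subunits, 9 had a mean under 1 FPKM and 8 a mean over 10 FPKM. In the order of levels, 21 of the 30 neighbouring pairs overlapped between libraries, so most neighbours do not differ beyond their spread. Psma7 alone contributed 66.2% ± 2.91 (SD, n = 5) of the summed FPKM of the alpha and beta rings. The range between subunits was smaller in CPEB3+/- 2cell libraries, where Psmb6 was highest at 16.05 FPKM and Psmd13 lowest at 0.171 FPKM.

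**Figure D1:**
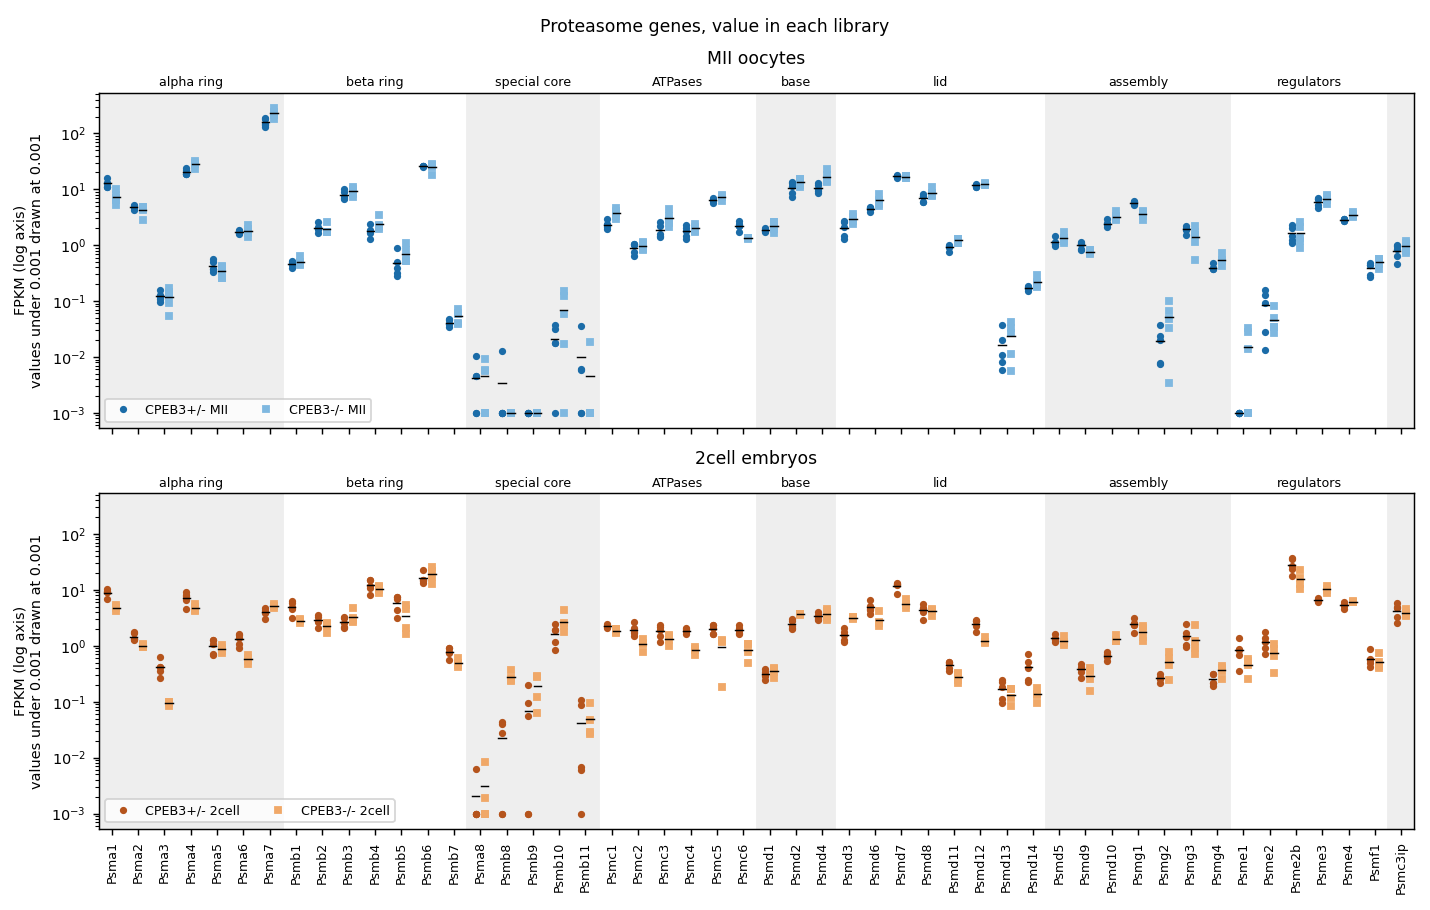
FPKM of the 50 members on a log axis in MII oocytes (top) and 2cell embryos (bottom), with 1 point per library, a horizontal line at the group mean, and values under 0.001 FPKM drawn at 0.001. Genes are ordered by their place in the particle, and Psma7 lies above all other members in MII oocytes, between 130 and 286 FPKM, but between 2.97 and 5.52 FPKM in 2cell embryos.

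The highest and lowest member of each group in CPEB3+/- MII libraries describe that spread. In the alpha ring Psma7 had 157 ± 26.4 FPKM (SD, n = 5, as for all means of this group) and Psma3 had 0.123 ± 0.0243 FPKM. In the beta ring the range ran from Psmb6, the caspase-like catalytic subunit, at 25.97 ± 0.823 FPKM to Psmb7, the trypsin-like catalytic subunit, at 0.0412 ± 0.00575 FPKM. Psmb5, the chymotrypsin-like subunit, lay between them at 0.473 ± 0.243 FPKM, so the mRNAs of the catalytic subunits, which assemble in equal numbers, were listed far apart. Among the base ATPases Psmc5 was highest at 6.34 ± 0.457 FPKM and Psmc2 lowest at 0.902 ± 0.184 FPKM. Of the other base subunits Psmd2, a scaffold of the base, was highest at 10.7 ± 2.64 FPKM and Psmd1, the other large scaffold, lowest at 1.87 ± 0.125 FPKM. In the lid Psmd7, the inactive partner of Psmd14, had 16.9 ± 0.7504 FPKM, while Psmd14 itself had 0.171 ± 0.0123 FPKM and Psmd13 0.0165 ± 0.0129 FPKM. Every group thus held members that differed several-fold or more. Among the assembly chaperones, Psmg1 was highest at 5.68 ± 0.337 FPKM and its dimer partner Psmg2 lowest at 0.0192 ± 0.0123 FPKM. Of the regulators, Psme3, the nuclear PA28 gamma activator, had 5.99 ± 0.996 FPKM, while Psme1, the PA28 alpha subunit, was listed at 0 in all 5 libraries. The special core subunits were at or near 0, from Psmb10 at 0.0209 ± 0.0145 FPKM to Psmb9, listed at 0 in all 10 MII libraries. A listed 0 or a very low value need not mean an absent mRNA in this table, since genes used by every cell were also low in CPEB3+/- MII libraries, with means of 0.00542 FPKM for Rpl3, 0.551 FPKM for Gapdh and 2.43 FPKM for Eef1a1.

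Several members have near-identical gene copies elsewhere in the genome. A processed pseudogene is a DNA copy of a spliced mRNA, and reads shared by a gene and its copy can be credited to either. Of the 50 members, 15 had a pseudogene with at least 90% identity over at least 50% of the copy, and 13 of the 21 such copies were in the table. Psma3 (chr12:70974621-70996347, + strand, GRCm38) was identical to Gm13835, a processed pseudogene at chr6:31141979-31142663, over all 665 compared bases of its coding sequence of 768 bases. Of the 150-base windows (the read length) in the coding sequence of Psma3, 83.4% were found unchanged in that copy. Psma5 (chr3:108256926-108279974, + strand) differed from Gm8394 (chr10:85313488-85314439) at 8 of 726 bases, and Psme2 (chr14:55587441-55591113, - strand) from Psme2b (chr11:48945354-48946190, - strand), an intronless member listed as protein coding, at 5 of 720. The sequences below are stretches of 90 coding bases from GENCODE transcripts on the sense strand, shown because they are what a read would have to tell apart. Capitals mark bases that differ within a pair, and the Psma3 stretch has none.
Psma3: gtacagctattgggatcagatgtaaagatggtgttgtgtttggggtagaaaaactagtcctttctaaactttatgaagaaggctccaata
Gm13835: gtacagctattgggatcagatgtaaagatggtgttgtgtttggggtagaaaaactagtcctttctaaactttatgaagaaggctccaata
Psma5: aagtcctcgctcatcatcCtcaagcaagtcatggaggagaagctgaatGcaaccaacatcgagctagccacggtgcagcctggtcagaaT
Gm8394: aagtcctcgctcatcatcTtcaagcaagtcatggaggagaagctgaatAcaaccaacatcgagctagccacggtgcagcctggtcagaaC
Psme2: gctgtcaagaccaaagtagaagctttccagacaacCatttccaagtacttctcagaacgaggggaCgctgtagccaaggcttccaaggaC
Psme2b: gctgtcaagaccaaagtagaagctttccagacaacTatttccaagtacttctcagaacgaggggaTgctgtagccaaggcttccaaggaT

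The copies held more of the listed signal than the genes in several of these pairs. In CPEB3+/- MII libraries, Gm13835 was listed at 33.4, 38.6, 32.9, 34.8 and 33.4 FPKM, against 0.108, 0.127, 0.1203, 0.0969 and 0.161 FPKM for Psma3. Psma3 thus held 0.342% of the sum of itself and its 3 listed copies, and Psma5 held 2.87% of the sum with its 2 copies. Gm8394 was listed at 9.41, 13.4, 7.93, 10.2 and 12.03 FPKM, and Psme2b at 1.62 against 0.0837 FPKM for Psme2. Psma4 and its copy Gm6542 were listed at similar levels of 20.4 and 24.6 FPKM. The share of windows found in any other gene was 33.3% for Psme2 and for Psme2b, 30.5% for Psmg3, 27.04% for Psma5, and at most 8.48% for the members other than these and Psma3. Psmb7 and Psmd13, the lowest subunits, had no pseudogene copy by this rule. How the reads were divided between gene and copy was not given in the sources used here, so the values of members that share windows with another gene are uncertain as single genes.

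**Figure D2:**
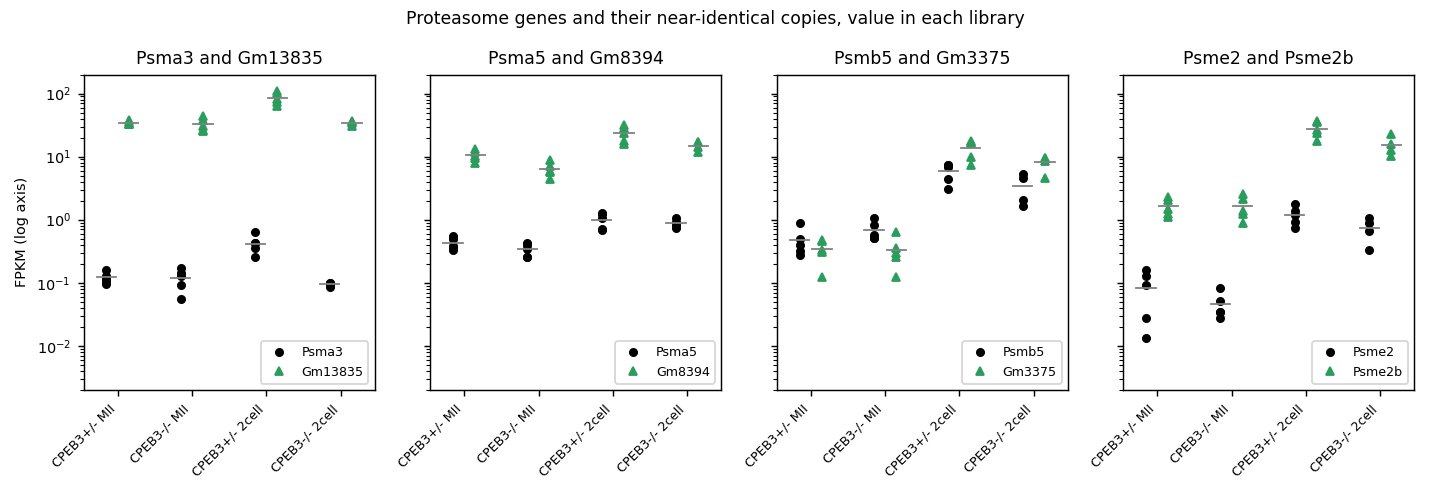
FPKM (log axis) of 4 members (black circles) and their near-identical copies (green triangles) in each library of the 4 groups, with a grey line at each mean. Gm13835 lies between 25.3 and 110 FPKM and Psma3 between 0.0545 and 0.629 FPKM, and both are lower in CPEB3-/- than in CPEB3+/- 2cell libraries.

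The change from MII oocyte to 2cell embryo was examined within each genotype, and both comparisons use the same libraries as the comparisons of genotypes. Proteasome genes moved in both directions. In the CPEB3+/- libraries 33 of the 45 tested members passed an adjusted p of 0.05 and a 1.5-fold change, 15 upwards and 18 downwards, where 69.5% of all 12684 tested genes did, 38.5% upwards and 30.9% downwards. The deposited values of 33 members did not overlap between stages, where those of 64.4% of genes did not. The median log2 difference of the tested members was -0.16, against 0.12 for all genes. In the CPEB3-/- libraries 35 of 45 passed, 13 upwards and 22 downwards, where 67.2% of 13458 genes did (37.5% upwards and 29.7% downwards), and 35 did not overlap, where 63.5% of genes did not, with a median of -0.57 against 0.12. The split depended on the scaling. With each library scaled to its column sum it became 11 up and 27 down in CPEB3+/- (30.9% and 44.1% of all genes, with a median of -0.41) and 12 up and 26 down in CPEB3-/- libraries (31.8% and 39.2% of all genes, with a median of -0.25). With quantile scaling it was 10 up and 22 down in CPEB3+/- libraries (30.5% and 43.0% of all genes). In CPEB3-/- libraries it was then 12 up and 25 down (29.8% and 42.1% of all genes). The summed haemoglobin genes and the summed cumulus and granulosa markers were higher in every 2cell than in every MII library, as given above, and their part in these differences was not tested. In bulk samples a change per cell and a change in the total RNA of the cells cannot be told apart.

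The largest fall was that of Psma7. It was listed at 146, 183, 139, 129.8 and 187 FPKM in CPEB3+/- MII and at 4.67, 4.01, 2.97, 3.92 and 4.32 FPKM in CPEB3+/- 2cell libraries, a log2 difference of -5.39 ± 0.14 (SE, limma adjusted p = 7.48e-11). The CPEB3-/- libraries went from a range of 182 to 286 FPKM to a range of 4.67 to 5.52 FPKM, with -5.56 on the log2 scale. The groups lay far apart at both genotypes, and the share of Psma7 in the summed core subunits went from 66.2% ± 2.91 to 5.73% ± 0.968 (SD, n = 5 each) in CPEB3+/- libraries. Without Psma7, the other 13 ring subunits summed to 78.97 ± 3.48 FPKM in MII and 65.7 ± 6.73 FPKM in 2cell libraries of that genotype, so most of the fall of the core sum lay in 1 gene. The other alpha subunits moved both ways in CPEB3+/- libraries, with log2 differences of -1.78 for Psma2, -1.64 for Psma4, -0.63 for Psma1, 1.104 for Psma3 and 0.92 for Psma5. The call of Psma1 was lost without the CPEB3+/- 2cell library C and, in the CPEB3-/- libraries, without the MII library E, and at both genotypes with the values as deposited (-0.51 and -0.57), with a pseudocount of 1 and with the GC correction (-0.44 and -0.38). That of Psma3 was lost with quantile scaling (0.56) and with a pseudocount of 1 (0.31). Psma3 reached 0.1 FPKM in 4 of the 5 CPEB3+/- MII libraries and passed the filter through the 2cell group, so its rise is a description.

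Of the 7 beta ring subunits 4 were called higher at both genotypes, namely Psmb1, Psmb4, Psmb5 and Psmb7, where 38.5% and 37.5% of all tested genes were. Psmb5 went from 0.313, 0.881, 0.279, 0.398 and 0.495 FPKM to 3.09, 4.42, 7.33, 7.32 and 6.92 FPKM in CPEB3+/- libraries, a log2 difference of 3.27 ± 0.29 (SE, limma adjusted p = 9.01e-07). Its copy Gm3375 had means of 0.3398 FPKM in MII and 13.6 FPKM in 2cell libraries. Psmb1, a structural beta subunit, went from a range of 0.383 to 0.5295 to a range of 3.18 to 6.22 FPKM, with a difference of 3.002 ± 0.18 (SE, limma adjusted p = 3.01e-08). Psmb4 rose by 2.56 on the log2 scale. Psmb7 went from a range of 0.0339 to 0.0487 to a range of 0.553 to 0.918 FPKM, and at both genotypes it was tested only because it reached 0.1 FPKM in the 2cell libraries, so its call is no independent result. The other catalytic subunit, Psmb6, which was the highest of the ring in the oocyte, went the other way in CPEB3+/- libraries, from a range of 24.6 to 26.5 to a range of 13.4 to 22.6 FPKM (-0.84 ± 0.15 SE, limma adjusted p = 0.000229). Psmb3, a structural subunit, had a difference of -1.68 ± 0.15 (SE, limma adjusted p = 1.27e-06).

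The 3 non-ATPase base subunits of the 19S particle fell at both genotypes, where 30.9% and 29.7% of all tested genes did, with log2 differences in CPEB3+/- libraries of -2.37 for Psmd1, -2.204 for Psmd2 and -1.75 for Psmd4, the ubiquitin receptor. The sum of these 3 genes went from a range of 17.9 to 27.5 to a range of 5.499 to 6.75 FPKM. In the lid 4 of 7 tested subunits fell and 1 rose in CPEB3+/- libraries, and 5 of 7 fell in CPEB3-/- libraries. Psmd12, a scaffold subunit of the lid, fell from 11.5, 12.2, 11.1, 10.96 and 12.7 FPKM to 1.77, 2.23, 2.75, 2.75 and 2.92 FPKM in CPEB3+/- libraries (-2.34 ± 0.14 SE, limma adjusted p = 2.94e-08) and had a log2 difference of -3.33 in CPEB3-/- libraries. Of the 6 ATPases Psmc5 was called lower and Psmc2 higher in CPEB3+/- libraries, whereas 5 fell in CPEB3-/- libraries, of which Psmc6 was lost without the CPEB3-/- 2cell library D, with the GC correction (-0.32) and with a pseudocount of 1 (-0.40). Psmc5 had differences of -1.75 ± 0.14 (SE, limma adjusted p = 3.43e-07) and -3.11 ± 0.42 (SE, limma adjusted p = 6.59e-05). The rises of Psmc2, Psmd14 and Psma5 in CPEB3+/- libraries were lost with column-sum scaling, at 0.28, 0.30 and 0.35 on the log2 scale, and with quantile scaling. Among the chaperones Psmd10, known as gankyrin, fell, with a log2 difference of -1.85, and Psmg2 had means of 0.0192 and 0.268 FPKM. In CPEB3+/- libraries 4 called members (Psmb7, Psmb10, Psme1 and Psmg2) and in CPEB3-/- libraries 4 (Psmb7, Psmb8, Psme1 and Psme2) reached 0.1 FPKM in 2cell libraries alone, so they had to differ and their values are a description. The same holds for Psme2 in CPEB3+/- and for Psmb10 and Psmg2 in CPEB3-/- libraries, which reached it in 2, 2 and 1 of the 5 MII libraries and passed the filter through the 2cell group. Psma3 in CPEB3+/- libraries, at 4 of 5, passed it that way too and is likewise a description.

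The summed regulators went from a range of 9.42 to 11.9 FPKM in CPEB3+/- MII to a range of 31.7 to 51.5 FPKM in CPEB3+/- 2cell libraries, mostly through 1 gene of the 11S (PA28) family. Psme2b was listed at 1.11, 2.06, 2.27, 1.22 and 1.47 FPKM in CPEB3+/- MII and at 23.3, 35.3, 26.4, 17.7 and 36.5 FPKM in CPEB3+/- 2cell libraries, a difference of 3.89 ± 0.25 (SE, limma adjusted p = 6.1e-08). Psme2, its multi-exon relative that encodes PA28 beta, had a range of 0.0132 to 0.1598 FPKM in MII and of 0.727 to 1.76 FPKM in 2cell libraries. Psme1 was listed at 0 in all CPEB3+/- MII libraries and at 0.355 to 1.36 FPKM in 2cell libraries, so no fold is given for it. Psme4, the PA200 activator, rose by a smaller 0.76 ± 0.11 (SE, limma adjusted p = 6.37e-05), which was lost with column-sum and with quantile scaling. Psme3 and the inhibitor Psmf1 were not called at either genotype, with differences of -0.003 and 0.39 in CPEB3+/- libraries. The immunoproteasome subunit Psmb10 went from a range of 0 to 0.0377 to a range of 0.832 to 2.47 FPKM. Psmc3ip rose from a range of 0.451 to 1.02 to a range of 2.598 to 5.77 FPKM.

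**Figure D3:**
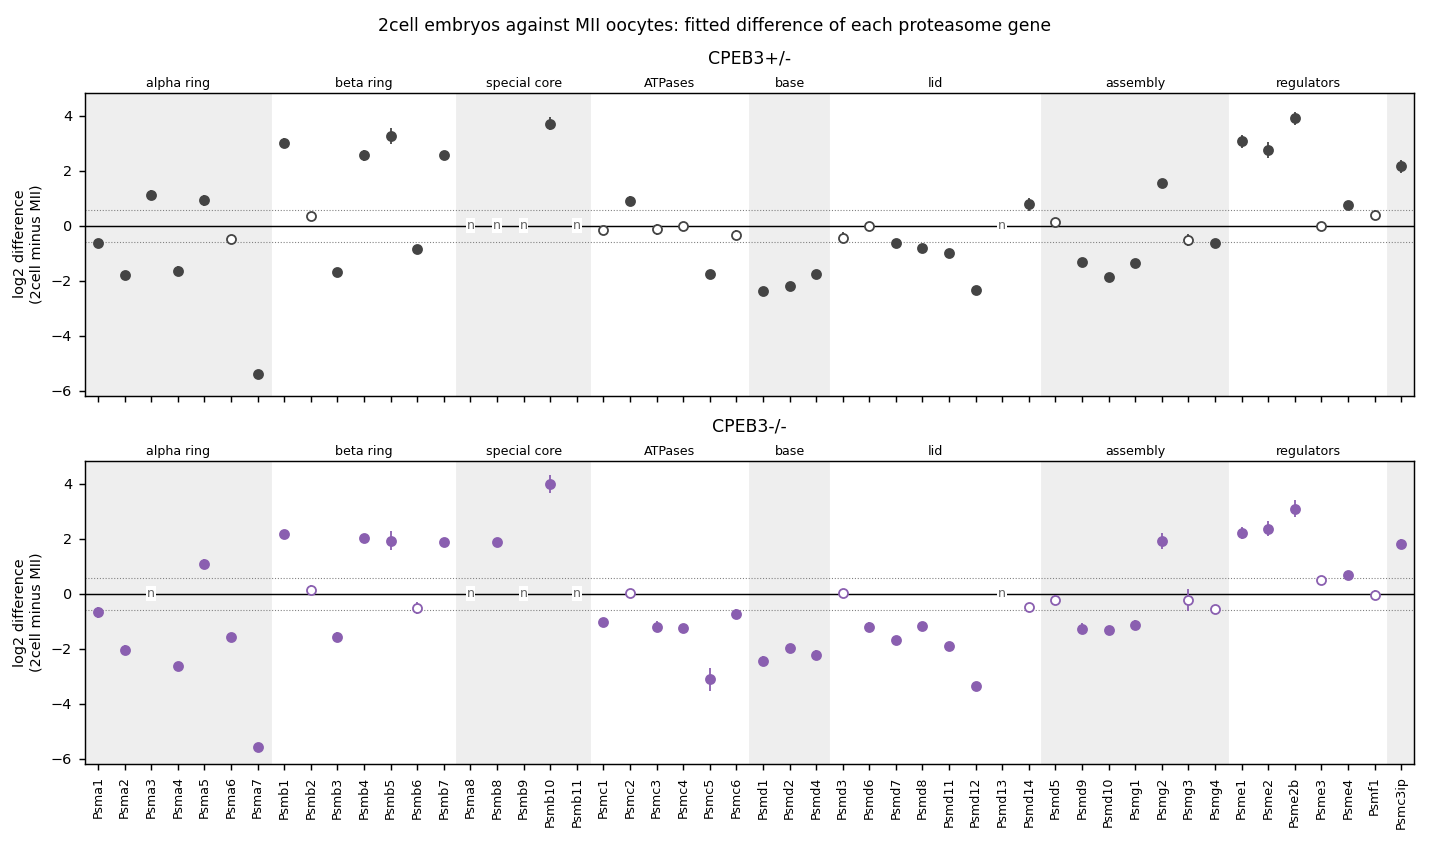
Fitted log2 differences (2cell minus MII) with SE for each tested member in CPEB3+/- (top) and CPEB3-/- libraries (bottom), where filled points passed an adjusted p of 0.05 and 1.5-fold, dotted lines mark 1.5-fold and n marks members not tested. Psma7 lies lowest in both panels, at -5.39 and -5.56, and Psmb1, Psmb4, Psmb5 and Psme2b lie between 1.94 and 3.89, while the points of Psmb7, Psmb10, Psme1 and Psmg2 in the top panel belong to genes that reached 0.1 FPKM in 2cell libraries alone.

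Genotypes were compared first in MII oocytes. Of 40 tested members 4 passed, 1 higher (Psmc3) and 3 lower (Psma1, Psmc6 and Psmg1) in CPEB3-/- libraries, where 12.9% of all 10515 tested genes did, 5.59% higher and 7.29% lower. The median log2 difference was 0.11, against 0.01 for all genes, and with column-sum scaling, which moved the median of all genes to 0.15, the split became 4 higher and 2 lower (10.6% and 4.55% of all genes). For 8 of the tested members the libraries of the groups did not overlap, where those of 16.3% of all tested genes did not. Psma1, an alpha ring subunit, was listed at 13.02, 11.2, 15.8, 12.9 and 11.1 FPKM in CPEB3+/- and at 5.31, 6.32, 7.97, 6.98 and 10.2 FPKM in CPEB3-/- libraries. The groups did not overlap, with the CPEB3-/- group lower and a log2 difference of -0.91 ± 0.20 (SE, limma adjusted p = 0.0118). The ATPase Psmc6 had 2.399, 2.21, 2.73, 2.16 and 1.73 FPKM against 1.28, 1.34, 1.35, 1.33 and 1.32 FPKM, again without overlap, and differed by -0.80 ± 0.14 (SE, limma adjusted p = 0.00431). Psmg1, which forms with Psmg2 the chaperone of the alpha ring, had 5.22, 6.08, 5.47, 5.8 and 5.82 against 3.999, 3.86, 4.11, 2.87 and 3.35 FPKM and a difference of -0.74 ± 0.091 (SE, limma adjusted p = 0.000697). These 3 calls remained without each library left out in turn. The call of Psmc6 was lost with a pseudocount of 1 and with the correction for GC content, and that of Psmg1 with column-sum scaling. The ATPase Psmc3 had 1.403, 2.57, 1.46, 1.56 and 2.204 against 4.398, 2.84, 3.31, 2.48 and 2.08 FPKM, with overlapping groups and 0.59 ± 0.19 (SE, limma adjusted p = 0.0485), and its call was lost without any of 8 of the 10 libraries, at adjusted p values up to 0.115. Members that passed the adjusted p but not the fold were Psma7 (0.47 ± 0.12 SE, limma adjusted p = 0.0206), Psmc1, Psmd4, Psma4 and Psmd6, all with values above 0, and Psmd9 with a value below 0. In the same comparison 2 of the 4 tested markers of 2cell embryos (Zscan4c at 2.24 and Zscan4d at 2.89) were called higher and 1 of the 6 oocyte markers (Mos, -1.75) was called lower, and their part in the differences was not tested. Members that did not reach 0.1 FPKM in 5 MII libraries were Psma8, Psmb7 to Psmb11, Psmd13, Psme1, Psme2 and Psmg2.

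In 2cell embryos more proteasome genes differed between the labelled genotypes, mostly downwards. Of 48 tested members 19 passed, 4 higher and 15 lower in CPEB3-/- libraries, where 18.3% of all 14051 tested genes passed, 8.41% higher and 9.85% lower. Of the 31 standard subunits, 14 were called lower and 1 higher. The median over members was -0.34, against -0.01 for all genes. With column-sum scaling the median of all genes moved to 0.26, that of the members to -0.04, and the split became 7 higher and 6 lower, where 17.2% of all genes were called higher and 4.08% lower, so the members lay below the bulk of genes under both scalings while the number called lower did not hold. With the values as deposited it was 5 higher and 11 lower, where 9.34% and 8.51% of all genes were. For 19 tested members the libraries of the groups did not overlap, where those of 20.0% of all tested genes did not. The members not tested were Psma8 and Psmb11. Of the 19 called members, 2 (Psma3 and Psmb8) reached 0.1 FPKM only in the group where they were high, so they had to differ and are described without a test. Psmd14, also called, reached it in 3 of the 4 CPEB3-/- libraries and passed the filter through the CPEB3+/- group, as a description too. With the GC correction 14 members were called, 3 higher and 11 lower, where 5.91% and 7.40% of all genes were. The calls of Psmd11 (log2 -0.23), Psmb7 (-0.28), Psma4 (-0.46), Psmc2 (-0.52), Psmd14 (-0.87) and Psme3 (0.56) were then lost. With a pseudocount of 1 those of Psma3, Psma4, Psma6, Psmb7, Psmb8, Psmc2, Psmd10, Psmd11, Psmd14 and Psme3 were lost. In the same comparison 1 of the 3 tested cumulus and granulosa markers (Tnfaip6, -1.01) and 1 of the 7 markers of 2cell embryos (Zscan4d, -1.03) were called lower, and 2 members of each list had fitted differences above 0. Of the genes used by every cell, Gapdh was called higher (1.54) and Eef1a1 (0.16) and Rpl3 (0.22) were not called. The part of these genes in the differences was not tested.

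**Figure D4:**
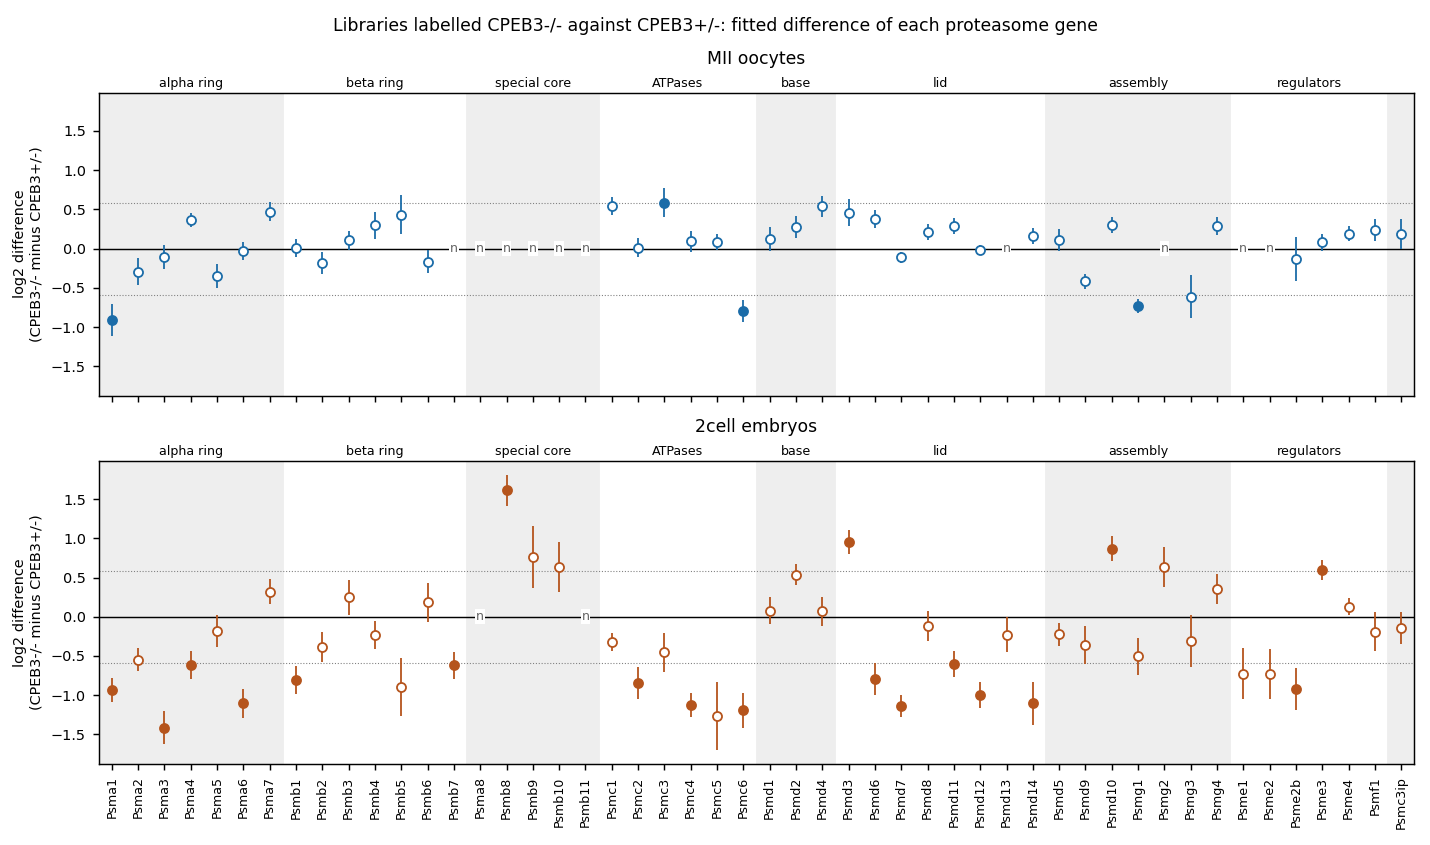
Fitted log2 differences (CPEB3-/- minus CPEB3+/-) with SE for each tested member in MII oocytes (top) and 2cell embryos (bottom), where filled points passed an adjusted p of 0.05 and 1.5-fold, dotted lines mark 1.5-fold and n marks members not tested. In MII oocytes 4 points are filled, and in 2cell embryos 15 filled points lie below 0 and 4 above.

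The alpha ring had 4 of 7 subunits called lower in CPEB3-/- 2cell libraries, where 9.85% of all tested genes were, and the 4 include Psma3, which had to differ. With column-sum scaling 2 were called lower and 1 higher, where 4.08% and 17.2% of all genes were. Psma3 was listed at 0.261, 0.422, 0.356, 0.426 and 0.629 FPKM in CPEB3+/- and 0.0841, 0.0993, 0.0993 and 0.0953 FPKM in CPEB3-/- libraries. These values are low, and the copy Gm13835, which was identical to it in the stretch shown above, gave 62.3, 72.96, 83.2, 103 and 109.5 FPKM and 34.3, 35.6, 36.4 and 30.5 FPKM, a difference of -1.36 ± 0.16 (SE, limma adjusted p = 0.00125). Gene and copies together summed to 64.3 to 113 FPKM in CPEB3+/- and 31.8 to 37.4 FPKM in CPEB3-/- libraries without overlap, so the sum was lower as well as the gene. Psma6 had 1.07, 0.9198, 1.37, 1.61 and 1.58 against 0.679, 0.465, 0.544 and 0.6 FPKM and a difference of -1.100 ± 0.18 (SE, limma adjusted p = 0.00471), a call that was lost with a pseudocount of 1 (-0.57). Psma1 was lower here too, as in the oocyte, with 6.88 to 10.4 against 4.28 to 5.35 FPKM (-0.93 ± 0.15 SE, limma adjusted p = 0.00458), a call that was lost with column-sum scaling (-0.58). The groups of these 3 genes did not overlap. Psma4 overlapped between groups and differed by -0.61 ± 0.18 (SE, limma adjusted p = 0.0386), a call that was lost in 8 of the 9 fits that left out 1 library. Psma7, the alpha subunit with the largest change between stages, did not pass the test (0.32 ± 0.16 SE, limma adjusted p = 0.189).

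In the beta ring, 2 of 7 subunits were called lower, where 9.85% of all tested genes were. With column-sum scaling limma called 0, and 2 had an unadjusted p under 0.05, where 37.9% of all genes did. Psmb1 had 3.18, 4.49, 4.95, 5.79 and 6.22 against 2.73, 2.88, 2.61 and 3.07 FPKM without overlap (-0.80 ± 0.17 SE, limma adjusted p = 0.0124). Among the catalytic subunits, Psmb7 had 0.553 to 0.918 against 0.423 to 0.612 FPKM (-0.62 ± 0.17 SE, limma adjusted p = 0.0329), and this call was lost in 7 of the 9 fits that left out 1 library. Psmb5 had 3.09 to 7.33 against 1.65 to 5.29 FPKM and did not pass (-0.90 ± 0.37 SE, limma adjusted p = 0.117), nor did Psmb6, with 13.4 to 22.6 against 12.6 to 26.1 FPKM (0.18 ± 0.24 SE, limma adjusted p = 0.638). The inducible counterparts of these subunits, which replace them in the immunoproteasome, all had fitted differences above 0. Psmb8, the counterpart of Psmb5, was listed at 0.0435, 0.0279, 0, 0 and 0.0397 FPKM in CPEB3+/- and at 0.268, 0.238, 0.246 and 0.373 FPKM in CPEB3-/- libraries. It stayed low in absolute terms, at 8.88% ± 3.44 (SD, n = 4) of the sum of Psmb8 and Psmb5 against 0.517% ± 0.572 (SD, n = 5), and the call was lost with a pseudocount of 1. Psmb9 had 0 to 0.197 against 0.0629 to 0.285 FPKM (0.76 ± 0.39 SE, limma adjusted p = 0.199). Psmb10 had 0.832 to 2.47 against 1.73 to 4.296 FPKM (0.64 ± 0.32 SE, limma adjusted p = 0.185), and both of these overlapped between groups.

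The 19S particle was lower as a sum, with 39.2 to 49.6 FPKM in CPEB3+/- and 29.4 to 36.2 FPKM in CPEB3-/- 2cell libraries and no overlap. With each library scaled to the mean column sum the groups overlapped, at 28.7 to 36.2 against 26.5 to 31.9 FPKM. The ATPase ring carried part of the lower 19S sum, with fitted differences of its 6 members from -1.26 to -0.32. Of these, 3 were called lower, where 9.85% of all tested genes were. With column-sum scaling 2 calls were left, where 4.08% of all genes were called lower and 17.2% higher, and Psmc1 moved to 0.01. Psmc4 had 1.84, 2.04, 1.604, 1.85 and 2.04 against 0.847, 0.966, 0.672 and 0.874 FPKM (-1.13 ± 0.15 SE, limma adjusted p = 0.00204), and Psmc6 had 1.93, 1.61, 1.68, 2.103 and 2.35 against 1.06, 0.78, 1.07 and 0.484 FPKM (-1.19 ± 0.22 SE, limma adjusted p = 0.00728). Psmc6 was thus called lower at both stages. Psmc2 was called as well (-0.84 ± 0.20 SE, limma adjusted p = 0.0173), though not without the CPEB3-/- library D. Psmc5 had the lowest fitted value of the ring but did not pass (-1.26 ± 0.43 SE, limma adjusted p = 0.067). Its CPEB3-/- library D was listed at 0.184 FPKM, and the other CPEB3-/- libraries between 1.16 and 1.29 FPKM. Psmc1 and Psmc3 did not pass either, at -0.32 and -0.45. The ATPases summed to 10.8 to 13.2 against 5.58 to 7.42 FPKM, without overlap, and to 7.81 to 9.11 against 4.92 to 6.88 FPKM after column-sum scaling.

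In the lid 5 of 8 subunits were called lower and 1 higher, where 9.85% and 8.41% of all tested genes were, and with column-sum scaling 2 lower and 1 higher, where 4.08% and 17.2% were. Psmd7 had 8.598, 12.2, 12.8, 13.5 and 12.5 against 6.77, 4.65, 5.32 and 5.54 FPKM (-1.14 ± 0.14 SE, limma adjusted p = 0.00162), and Psmd12 had 1.77, 2.23, 2.75, 2.75 and 2.92 against 1.15, 1.45, 1.12 and 1.19 FPKM (-0.997 ± 0.16 SE, limma adjusted p = 0.00418). In both genes every CPEB3-/- library lay below every CPEB3+/- library. The deubiquitinase Psmd14 had 0.229, 0.249, 0.406, 0.7103 and 0.5099 against 0.179, 0.133, 0.0952 and 0.139 FPKM (fitted difference -1.102 ± 0.27 SE). It reached 0.1 FPKM in 3 of the 4 CPEB3-/- libraries and passed the filter through the CPEB3+/- group. Its values are therefore a description, although it is counted among the 5 called lower. Its call was lost without the CPEB3+/- library E and without the CPEB3-/- libraries C or D. Psmd6 and Psmd11 were called at -0.79 and -0.61, and each call was lost in 5 of the 9 fits that left out 1 library. Psmd3, a scaffold subunit of the lid, went the other way without overlap, with 1.17, 1.296, 2.08, 1.54 and 1.76 against 3.34, 3.05, 3.104 and 3.24 FPKM (0.95 ± 0.15 SE, limma adjusted p = 0.00418). Of the 3 non-ATPase base subunits 0 were called by limma and 1 had an unadjusted p under 0.05, namely Psmd2, whose difference was above 0 but under 1.5-fold (0.54 ± 0.13 SE, limma adjusted p = 0.0206).

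Of the 7 assembly chaperones 1 was called, where 18.3% of all tested genes were. This was Psmd10, at 0.674, 0.761, 0.533, 0.632 and 0.701 FPKM in CPEB3+/- and 1.24, 1.28, 1.23 and 1.58 FPKM in CPEB3-/- libraries (0.87 ± 0.16 SE, limma adjusted p = 0.00683), and its call was lost with a pseudocount of 1 (0.46). Psmg1, lower in the CPEB3-/- oocyte, overlapped between the groups here (-0.50 ± 0.24 SE, limma adjusted p = 0.168). Among the regulators Psme3 was higher, at 6.01 to 7.297 against 8.69 to 11.98 FPKM (0.60 ± 0.12 SE, limma adjusted p = 0.00963), and fell below 1.5-fold without the CPEB3+/- library D or the CPEB3-/- library C. Psme2b was lower, at 17.7 to 36.5 against 10.2 to 22.8 FPKM (-0.92 ± 0.27 SE, limma adjusted p = 0.0398), and this call was lost in 7 of the 9 fits that left out 1 library. Psme4, the activator PA200, did not pass (0.13 ± 0.11 SE, limma adjusted p = 0.422). Psmc3ip did not pass in either stage, with 0.19 in MII and -0.14 in 2cell libraries.

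**Figure D5:**
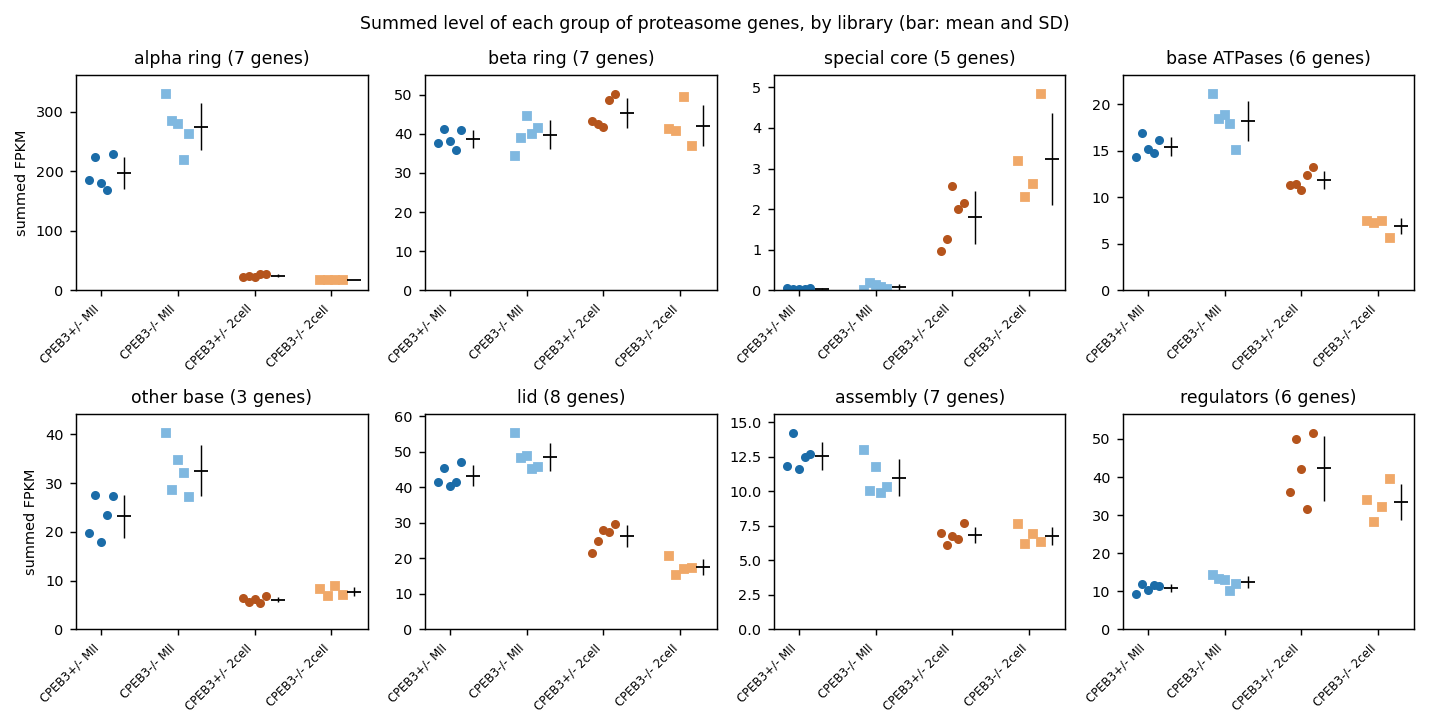
Summed FPKM of the members of each group in every library of the 4 groups (points), with the mean and SD as a bar beside them and axes from 0. The alpha ring sum lies between 168 and 329 FPKM in MII oocytes and between 16.8 and 27.9 FPKM in 2cell embryos, and the sums of the ATPases and of the lid do not overlap between genotypes in 2cell embryos, the latter only without column-sum scaling. The sum of the other base subunits does not overlap there either, with the CPEB3-/- libraries higher.

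Whether the difference between genotypes itself changed with the stage was tested as an interaction in all 19 libraries. Of 48 tested members 16 passed, 2 upwards and 14 downwards, where 7.64% of all 15786 tested genes did, 3.71% upwards and 3.93% downwards. The median over members was -0.29, against 0.04 for all genes. All 14 members with a negative interaction were standard subunits, namely Psma3, Psma4, Psma6, Psmb1, Psmb7, Psmc1, Psmc2, Psmc3, Psmc4, Psmd6, Psmd7, Psmd11, Psmd12 and Psmd14. The clearest examples in the lid were Psmd7 (-0.98 ± 0.17 SE, limma adjusted p = 0.00224) and Psmd12 (-0.93 ± 0.17 SE, limma adjusted p = 0.00311), which differed by only -0.11 and -0.01 between genotypes in MII. Psmc4 had an interaction of -1.17 ± 0.19 (SE, limma adjusted p = 0.00123) and Psma3 of -1.24 ± 0.25 (SE, limma adjusted p = 0.0058), and the copy Gm13835 gave -1.11 ± 0.22 (SE, limma adjusted p = 0.00559). In Psma4 (-0.92 ± 0.21 SE, limma adjusted p = 0.0108) the difference was above 0 in MII and below 0 in 2cell libraries, and Gm6542 had -1.32 ± 0.18 (SE, limma adjusted p = 0.000351). The positive interactions were those of Psmd10 (0.60 ± 0.17 SE, limma adjusted p = 0.0405) and of Psmb8, which reached 0.1 FPKM in CPEB3-/- 2cell libraries alone and whose call is therefore a description. Psma1 and Psmc6, lower in CPEB3-/- libraries at both stages, did not pass, with interactions of 0.03 and -0.34. The calls of Psmc2, Psmb1, Psmb7, Psmd10 and Psmc3 were lost in 6, 11, 12, 13 and 15 of the 19 fits that left out 1 library, and those of Psma3, Psma6, Psmb7, Psmb8, Psmc2, Psmd10, Psmd11 and Psmd14 with a pseudocount of 1.

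Partner genes of the proteasome were read from a list of 31, which holds ubiquitin genes, ubiquitin-activating enzymes, shuttle factors, further subunits and the transcription factors that induce proteasome genes. In 2cell libraries 5 of 31 were higher and 4 lower in CPEB3-/- libraries, and in MII libraries 3 of 29 were higher and 2 lower, where 18.3% and 12.9% of all tested genes passed in either direction. Nfe2l2, a transcription factor of the oxidative stress response, was lower at both stages, at 0.945 to 1.46 against 0.577 to 0.672 FPKM in MII (-0.86 ± 0.14 SE, limma adjusted p = 0.00247) and 1.42 to 1.92 against 0.784 to 0.901 FPKM in 2cell libraries (-0.88 ± 0.14 SE, limma adjusted p = 0.0042). Nfe2l1, the factor that raises proteasome genes when the proteasome is impaired, did not pass, with 0.43 ± 0.17 (SE, limma adjusted p = 0.0909) and 0.49 ± 0.18 (SE, limma adjusted p = 0.0825). The proteasome-bound deubiquitinase Usp14 was lower at both stages, with log2 differences of -0.62 and -0.79, and Uchl5, the other one, was lower in 2cell libraries (-0.81). Pomp, the maturation factor of the core, was lower in 2cell libraries (-0.64 ± 0.16 SE, limma adjusted p = 0.02) and had a negative interaction of -0.72. Genes with higher values in CPEB3-/- 2cell libraries were Ubqln4 (1.32), Uba1 (0.78), Rad23b (0.71) and Ddi2 (0.59), and those in MII libraries included Adrm1 (0.71) and Fbxo7 (0.60). Nploc4, which is counted among the 5, reached 0.1 FPKM in 3 of the 5 CPEB3+/- libraries and passed the filter through the CPEB3-/- group, so its values of 0.0532 to 0.135 against 0.241 to 0.325 FPKM are a description. Uchl5 reached it in 3 of the 4 CPEB3-/- libraries and passed through the CPEB3+/- group, as a description too. Between stages the partner genes were called 6 up and 13 down of 30 in CPEB3+/- and 8 up and 14 down of 31 in CPEB3-/- libraries, where 69.5% and 67.2% of all tested genes were called. Genes that rose in CPEB3+/- libraries included Rps27a (3.02), which encodes a ubiquitin fusion protein, and genes that fell included Usp14 (-2.303) and Uchl5 (-1.31). Ubqln4 is counted as a rise but reached 0.1 FPKM in 2cell libraries alone, at 0.0244 to 0.0928 FPKM in MII and 0.149 to 0.585 FPKM in 2cell libraries. Fbxo7, counted as a fall, reached it in 3 of 5 CPEB3+/- 2cell libraries.

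The members were also read for sequence features that the selection did not use. Promoters of RefSeq genes (GRCm38.p6, 250 bases before to 50 bases after the start) matched 42 members with 45 promoters. The core of the antioxidant response element, TGACNNNGC on either strand, to which Nfe2l1 and Nfe2l2 bind, was found in 6 of 45 (13.3%), against 12.4% of all 32851 promoters. The CCAAT box, also read on either strand, was found in 33.3% against 37.4%. The sites upstream of standard subunits are shown with up to 15 flanking bases on the strand of the gene, with the motif in capitals. They start at positions -47, -9, -227 and -247 from the start of Psmb5, Psmb6, Psmc6 and Psmd12, and the last pair holds it on the other strand.
Psmb5: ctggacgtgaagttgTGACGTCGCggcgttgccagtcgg
Psmb6: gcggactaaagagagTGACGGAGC
Psmc6: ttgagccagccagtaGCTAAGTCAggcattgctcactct
Psmd12: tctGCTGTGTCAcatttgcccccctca

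The 3′UTRs of the members, taken as the longest annotated per gene, had a median length of 475.5 bases for the 40 members tested in MII libraries and of 1221 bases for the 7729 tested genes that have one. A cytoplasmic polyadenylation element, searched as TTTTAT or TTTTAAT on the sense strand, was found in 45% of these members and in 64.5% of the genes. Per kilobase the members held 1.008 elements and all genes 1.35. Of the 15 members called lower in CPEB3-/- 2cell libraries 53.3% held the element, against 37.5% of the 48 tested there and 59.9% of all genes tested there. A match is a description of these letters and no measurement of binding.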

How the data were processed

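Libraries had been prepared from pools of oocytes or embryos with SMART-seq v4, and the authors trimmed reads with Trim Galore 0.4.1, aligned them to GRCm38 with HISAT2 2.0.5 and quantified genes in SeqMonk. The deposited values are FPKM, not counts, by their decimals and sums, although the table is named as raw counts. FPKM were scaled by the trimmed mean of M values (30% and 5% trims), filtered to genes at 0.1 FPKM or more in a number of libraries equal to the smallest group, transformed as log2(FPKM + 0.1) and tested with limma 3.58.1 (trend) in R 4.3.3 over all genes, with Benjamini-Hochberg adjustment. A fold change on this scale understates that of low genes. Calls required a change over 1.5-fold together with an adjusted p below 0.05. Single values were compared by exact two-sided permutation. No count test was run, because 43.3% of low values lay within 0.05 of a whole fragment count where chance gives 10%, so whole reads were not recovered and the depth is an estimate. Copies were searched with blastn 2.17.0. The test was run on simulated data first. The members and lists were chosen with earlier results of these data known, and the near-identical copies and the sequence motifs after member values were seen. Named genes were Cpeb3, called members (at most 8 in each direction where over 12 were called), the highest and lowest member of each group in CPEB3+/- MII libraries, the catalytic subunits and their inducible counterparts, untested members, Psmc3ip, Nfe2l1 and called partner genes, some of which are not reported here. Further members were named with the group they belong to, after their values were seen. Alternatives were other scalings, pseudocounts, filters, a GC correction, a replicate block, a joint fit and leaving out each library.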

Additional observations from a re-analysis of the deposited data

Results flagged for a closer look

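Of 176 sets of 4 or 5 libraries of 1 gene in 1 group, 10 held a library far from the rest by Dixon's test, where chance gives about 1 in 20. The ratio of the gap to the whole range is given for each. The 2cell libraries named were CPEB3+/- D for Cpeb3 (0.0566 FPKM, others 0.0204 to 0.0265, ratio 0.832), CPEB3-/- B for Cpeb3 (0.0362 FPKM, others 0.0599 to 0.0633, ratio 0.873), CPEB3+/- A for Psmb6 (22.6 FPKM, others 13.4 to 14.99, ratio 0.8289) and for Psmd7 (8.60 FPKM, others 12.2 to 13.5, ratio 0.731), and CPEB3-/- D for Psmc5 (0.184 FPKM, others 1.16 to 1.29, ratio 0.883) and Psmd10 (1.58 FPKM, others 1.23 to 1.28, ratio 0.837). The MII libraries named were CPEB3-/- A for Psma2 (2.79 FPKM, others 4.32 to 4.83, ratio 0.748) and Psmb4 (3.42 FPKM, others 1.93 to 2.25, ratio 0.786), and CPEB3+/- B for Psmg4 (0.470 FPKM, others 0.370 to 0.388, ratio 0.821) and Psmb8 (0.0128 FPKM, the others listed at 0, ratio 1).

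The difference between genotypes changed with the stage, by the limma interaction, in 16 members. In the core these were Psma3 (log2 -1.24), Psma4 (-0.92), Psma6 (-1.01), Psmb1 (-0.77), Psmb7 (-0.69) and Psmb8 (1.60). In the base they were Psmc1 (-0.82), Psmc2 (-0.81), Psmc3 (-0.995) and Psmc4 (-1.17). In the lid they were Psmd6 (-1.12), Psmd7 (-0.98), Psmd11 (-0.84), Psmd12 (-0.93) and Psmd14 (-1.21), and among the chaperones Psmd10 (0.60). Psmb8 reached 0.1 FPKM in CPEB3-/- 2cell libraries alone, so its value is a description.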

How the results depend on the processing

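No called member and no median over the members changed sign under any alternative. The split of calls between genotypes did with column-sum scaling, to 4 higher and 2 lower in MII and to 7 higher and 6 lower in 2cell libraries. In MII libraries it also turned without the fold threshold, to 6 higher and 4 lower. In MII oocytes 2 members were called with a pseudocount of 1 (4.57% of all genes), with the GC correction (11.4%) and with the GC correction plus replicate block (8.94%). Without the fold threshold 10 were called, 6 higher and 4 lower (10.1% and 11.2% of all genes). With quantile scaling 6 were, 3 higher and 3 lower (5.66% and 6.90%). The members' median was 0.28 with column-sum scaling and 0.20 with the deposited values. In 2cell embryos 10 were called with a pseudocount of 1 (8.38% of all genes, members' median -0.21), and the members' median was -0.038 with column-sum scaling. The median of the stage difference in CPEB3+/- libraries was -0.036 with the deposited values, -0.79 with column-sum and -0.50 with quantile scaling, -0.059 without a filter, and -0.55 with a filter of 1 FPKM. In CPEB3-/- libraries it was -0.98 with column-sum and -1.09 with quantile scaling, -0.40 with a pseudocount of 1, -0.41 without a filter, -1.08 with a filter of 1 FPKM, -0.38 with the GC correction and -0.35 with GC correction plus replicate block. The interaction had 9 calls (5.01% of all genes) and a members' median of -0.17 with a pseudocount of 1, and a members' median of -0.16 with column-sum scaling. The cause was not tested.

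The library letters do not pair the samples by any label. After each gene's group mean was subtracted, the remaining values of same-lettered libraries correlated between -0.175 and 0.120. With a replicate block 3 members were called in MII, 4 in 2cell, 33 and 34 between stages and 11 in the interaction. With block and GC correction, limma called 0 in 2cell, where 21 of 48 members and 23.8% of all genes had an unadjusted p under 0.05, and 10 in the interaction.

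Leaving out 1 library at a time gave 3 to 6 calls in MII, 13 to 19 in 2cell, 31 to 36 and 34 to 37 between stages and 11 to 17 in the interaction. The shares of all genes called ran from 8.77% to 14.2%, 12.4% to 18.8%, 68.1% to 70.1%, 64.9% to 68.0% and 5.84% to 9.58% in the same order. The members' medians ran from 0.09 to 0.12, -0.38 to -0.28, -0.30 to -0.14, -0.65 to -0.49 and -0.38 to -0.25, again in that order.

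Over all genes, calls in MII went from 1355 to 481 with a pseudocount of 1, 2247 without the fold threshold and 824 with the block. In 2cell libraries they went from 2565 to 1178 with a pseudocount of 1, 414 with the block and 0 with block and GC correction. With a pseudocount of 1 they went from 8810 and 9044 to 5119 and 5264 between stages, and from 1206 to 791 in the interaction. Depth limits low members: 0.1 FPKM is few fragments, and the smallest calls lie near it.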
